A study of Homo sapiens with 26 samples.

Results

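The genes described here are the nuclear-encoded genes of mitochondrial complex I and its assembly, taken as every transcript in the deposited codon counts whose GENCODE gene symbol starts with NDUF. The rule found 45 of 12325 transcripts, 1 for each gene. Of the 45, 35 encode complex I subunits (6 core, 8 accessory in the matrix arm, 9 accessory in the proximal and 11 in the distal membrane arm, and the acyl carrier protein NDUFAB1), 8 encode assembly factors (NDUFAF1 to NDUFAF8), and 2 carry the name only, NDUFA4 and its paralog NDUFA4L2. NDUFA4 was first described as a complex I subunit and is now assigned to complex IV.

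Complex I (NADH:ubiquinone oxidoreductase) takes electrons from NADH in the mitochondrial matrix, passes them along a flavin and a chain of iron-sulfur clusters to ubiquinone, and pumps protons across the inner membrane. Core subunits carry the cofactors and the catalysis, accessory subunits surround and stabilize them, and assembly factors help to build the complex without remaining in it. The membrane-embedded core subunits are encoded by mitochondrial DNA and are no members here. Every NDUF protein is made in the cytosol and imported, so that its translation can be read from cytosolic ribosomes.

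The cells were Huh7, a human liver cancer line, and all groups were kept in the same medium, with 0.5% DMSO as vehicle. PF-06446846 is a small molecule that makes human ribosomes stall on selected nascent chains, and the study profiled ribosome footprints to see which transcripts respond to it. In the first study, 18 ribo-seq libraries hold 3 replicates for each of 2 doses of PF-06446846, 1.5 and 0.3 μM, and of vehicle, after 10 min and after 60 min. In the second, 4 ribo-seq and 4 mRNA-seq libraries hold 2 replicates each of 1.5 μM and vehicle after 60 min, numbered 4 and 5, with both assays made from the same sample. The paper calls the 3 replicates of the first study biological, and names 2 biological replicates, the number of the second, for 1 of its processing steps. A ribo-seq read, or footprint, is an mRNA fragment protected by a ribosome and is placed at the codon in the ribosome's P site. The deposited values are raw read counts per codon.

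The libraries held between 6414227 and 22224137 reads in coding sequences (CDS), of which the 45 genes took between 0.507% and 0.587%. The hepatocyte products AFP, APOA1, APOB, TTR and SERPINA1 lay between the 95.8 and 99.9 percentile of vehicle footprint density, and ALB is not analysed here. Of the markers of other cells, EPCAM was read at 101 to 153 and PECAM1 at 5.2 to 12.1 footprints per kb of CDS per 1000000 CDS reads. EPCAM lay at the 88 percentile and PECAM1 at the 34.7 percentile, and PTPRC and COL1A1 are not analysed here. These are bulk samples, in which fewer cells of a kind and less RNA per cell cannot be told apart. The 10-min vehicle replicate 2 stood apart in several of the measures below, and for many genes described here the values without it are given too.

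NDUF coding sequences are short. Their median length was 146 codons with the stop codon, from 59 in NDUFB1 to 612 in NDUFS1, against 388 over all transcripts. Some of the isoforms the authors counted are shorter than the canonical protein, among them NDUFA9 (149 codons against 377 amino acids), NDUFAF2 (61 against 169) and NDUFC2 (72 against 119).

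In vehicle, NDUF genes were read far above the typical transcript. Footprint density, in reads per kb of CDS per 1000000 CDS reads and averaged over the 8 vehicle libraries of both studies, had a median of 187 over the 45 genes and 15.2 over all transcripts. It was above the overall median in 41 genes and among the highest 10% of all transcripts in 27. The levels spanned a range from 2294 ± 257 (SD, n = 8) in NDUFA4 to 0.408 in NDUFA4L2. Of the 44 pairs of neighbours in the order of the levels, 42 overlapped in their range over the 8 libraries, so that most steps in that order are within the spread.

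The core subunits all lay above the overall median. NDUFS8, an iron-sulfur subunit near the ubiquinone site, was the highest, with a density between 380 and 501 (median 449, mean 446 ± 37 SD, n = 8). NDUFV2, an iron-sulfur subunit of the NADH-oxidizing module, had 225.5 to 372 (median 323, mean 316 ± 50.7). NDUFV1, which binds NADH and the flavin, had 269.8 to 307 (median 274, mean 279 ± 12.2). NDUFS8 lies above both of the others, and the range of NDUFV2 encloses that of NDUFV1. NDUFS3, of the ubiquinone module, had 139 to 155 (median 148, mean 148 ± 5.19). NDUFS1, the largest core subunit, had 90.2 to 104 (median 95.2, mean 95.4 ± 4.29). The ranges of NDUFS3 and NDUFS1 do not overlap with each other or with those of the other 3.

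By role, the median over members, averaged over the 8 libraries, was 330 ± 27.1 in the distal membrane arm, 304 ± 91.7 in the proximal membrane arm, 230 ± 13 in the core, 143 ± 14.4 in the matrix-arm accessory subunits and 29.6 ± 4.05 in the assembly factors (SD, n = 8). NDUFAB1, the mitochondrial acyl carrier protein and the only subunit of its kind, had 338 ± 41.7. In every library the assembly factors had the lowest median, between 22.1 and 33.7, and these medians did not overlap with those of any class of subunits. Single members did overlap. Their means ran from 8.65 to 197 in the assembly factors, from 40.4 to 245 in the matrix-arm accessory subunits and from 2.43 to 998 in the proximal membrane arm. The ratio of the assembly factors' median to that of the subunits was 0.134 ± 0.0172 (0.112 to 0.157, n = 8) in footprints and 0.208 ± 0.028 (n = 2) in the vehicle mRNA libraries.

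The highest after NDUFA4, at 2031 to 2777 (median 2269), were NDUFS5 and NDUFA13, both accessory subunits of the proximal membrane arm. NDUFS5 had 900.5 to 1084 (median 997, mean 998 ± 59.2), and NDUFA13, also known as GRIM-19, had 667 to 1020 (median 747, mean 796 ± 130). The ranges of NDUFS5 and NDUFA13 overlap, and NDUFA4 stands clear of both. At the low end, NDUFA4L2, a paralog of NDUFA4 that is induced by hypoxia in many cells, was read at 0 in 3 of the 8 libraries and at no more than 0.91 in the others. NDUFA3, of the proximal membrane arm, had 0.712 to 4.77 (median 2.62), from 6.88 reads per library on average, on an isoform of 73 codons. NDUFAF6, an assembly factor, had 7.27 to 11.4 (median 8.5, mean 8.65 ± 1.26). These 3 are the lowest of the members, and NDUFA3 and NDUFA4L2 did not pass the read filter of the footprint comparisons at either time.

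**Figure D1:**
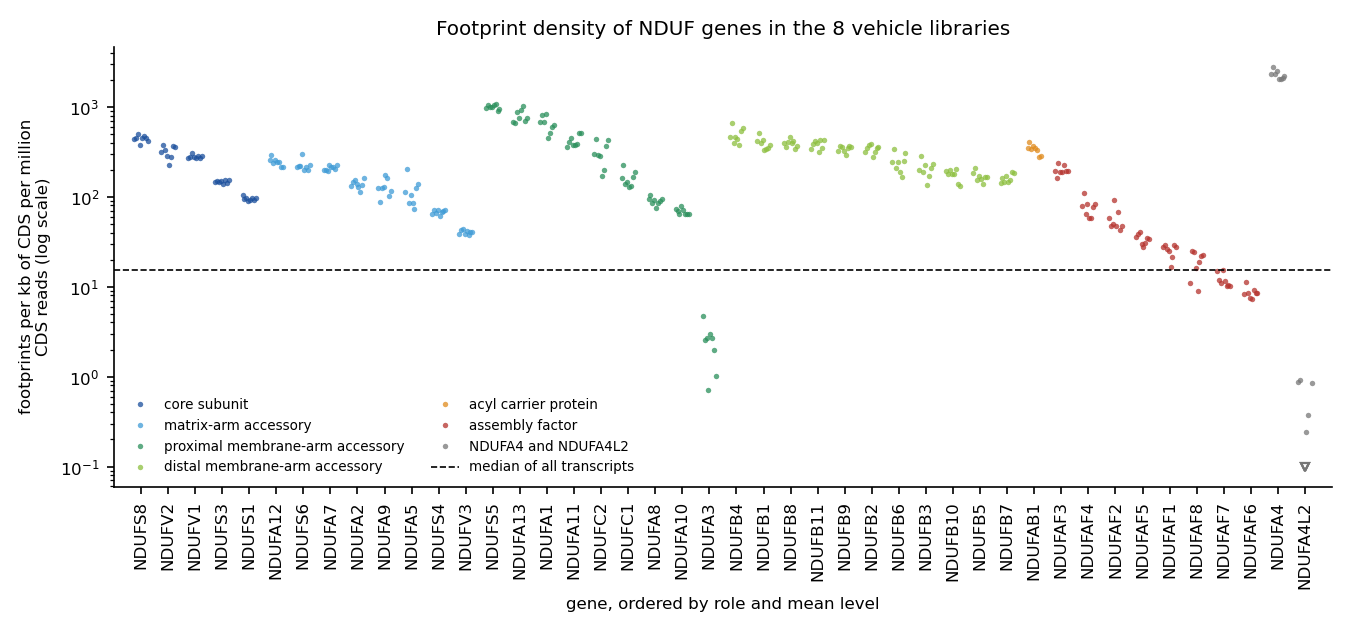
Footprint density of 44 NDUF genes (y axis, footprints per kb of CDS per 1000000 CDS reads, log scale) in the 8 vehicle libraries, 1 point per library, with genes grouped by role on the x axis. Triangles at the bottom mark libraries in which NDUFA4L2 had 0 reads. Most genes have means above the dashed median of all transcripts (15.2), and the assembly factors sit below most subunits.

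Translational efficiency (TE) was taken as footprint density over mRNA density in the same replicate number of the second study. It could be computed for 43 members and 10433 transcripts with at least 20 reads in each library. The members' median in vehicle was 1.07 and that of all transcripts 0.946. 25 of the 43 were above the overall median, 8 among the highest 25% and 1 among the highest 10%. The subunits (34) had a median of 1.11 and the assembly factors (8) 0.824. TE fell with CDS length over all transcripts, from a median of 1.07 up to 100 codons to 0.907 over 400 codons. The members' medians did not follow that order, with 1.17 (9 members up to 100 codons), 1.11 (22 up to 200), 0.924 (7 up to 400) and 1.28 (5 longer ones).

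NDUFA5, an accessory subunit of the matrix arm, had the highest TE of the members, at 2.73 and 3.56 in replicates 4 and 5, which is the 95.8 percentile. Next came NDUFS1 at 2.28 and 1.96 and NDUFAF1, which acts in building the membrane arm, at 2.22 and 1.88. The lowest were NDUFAF8 at 0.25 and 0.172, NDUFAF6 at 0.361 and 0.356, and the core subunit NDUFS8 at 0.592 and 0.479. NDUFS8 had both the highest footprint density and the lowest TE of the core subunits, and its mRNA density of 818 was the highest among them.

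The change with PF-06446846 was tested on the reads of each whole CDS with edgeR's quasi-likelihood test across all transcripts that passed its filter on low counts (Benjamini-Hochberg adjustment, false discovery rate 0.1). Few NDUF genes were called. After 10 min at 1.5 μM, 2 of 43 members were higher (0.462% of all 11045 tested were higher) and 0 lower (0.389% of all), with 15 of 43 at an unadjusted p under 0.05 (1953 of all). Without vehicle replicate 2 those 15 became 6 (1136 of all), and without 1.5 μM replicate 1 or 2 they became 8 (1113 and 1208 of all). The median log2 fold change was -0.02 in members and 0.01 in all transcripts. Permuting 3 against 3 libraries exactly gives no two-sided p under 0.1 for any 1 gene, so the tests are those fitted across transcripts. Some counts of members at an unadjusted p under 0.05 are printed below without the count over all transcripts. Those are not read as a result about the members.

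NDUFA9, an accessory subunit of the matrix arm that lies close to the ubiquinone site, had 77.1, 81 and 81.8 CPM (read counts per 1000000 reads of the library, scaled to the TMM library sizes) at 1.5 μM and 55.4, 37.9 and 56.9 with vehicle after 10 min. All 3 treated libraries are above all 3 of vehicle, of which replicate 2 is the lowest. Groups that do not overlap were found in 14 of 43 members and in 22.1% of all transcripts. The log2 fold change of NDUFA9 was 0.68 ± 0.14 (SE), with an adjusted p of 0.0698 by edgeR, and without vehicle replicate 2 it was 0.51 ± 0.11. NDUFA7, another accessory subunit of the matrix arm, had 91.7, 88.2 and 86.4 CPM at 1.5 μM and 65.9, 64.8 and 66.9 with vehicle. Here too the groups do not overlap, with a log2 fold change of 0.43 ± 0.1 and an adjusted p of 0.0999 by edgeR, at the edge of the threshold. Without vehicle replicate 2 the log2 fold change of NDUFA7 was 0.415 ± 0.11, with an adjusted p of 0.202 by edgeR. These 2 calls rest on the choice of libraries and tool. Leaving out any 1 of the 3 treated libraries, or vehicle replicate 1, left 0 calls (at most 0.54% of all transcripts called), without vehicle replicate 2 there was 1 (0.514%), and without vehicle replicate 3 there were 12, in a fit where 7.87% of all transcripts were higher and 7.01% lower. DESeq2 called 4 members (4.31% of all transcripts it tested), NDUFA7, NDUFA9, NDUFAF2 and NDUFV3, all higher.

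Members that did not pass had values on both sides of 0. NDUFAF2, an assembly factor related to the subunit NDUFA12, had 14.9, 14.6 and 14.7 CPM at 1.5 μM and 10.3, 8.38 and 9.25 with vehicle (log2 fold change 0.66 ± 0.16, adjusted p = 0.109 by edgeR). The groups do not overlap. NDUFA5 had 26.8, 38.8 and 27.6 CPM at 1.5 μM and 37.4, 66.7 and 29.4 with vehicle (-0.52 ± 0.25, adjusted p = 0.288 by edgeR), and NDUFAF4, which acts on the ubiquinone module, had 30.9, 28.8 and 34.9 against 40.6, 55.5 and 34.6 (-0.47 ± 0.16, adjusted p = 0.185 by edgeR). In both of these the groups overlap and vehicle replicate 2 is the highest library. Without it their log2 fold changes were -0.11 ± 0.17 and -0.26 ± 0.14.

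After 60 min at 1.5 μM, 0 of 43 members were called by edgeR (0.0726% of 11021 tested), 1 had an unadjusted p under 0.05, and DESeq2 called 0 (0.141% of its transcripts). That member was NDUFB8, an accessory subunit of the distal membrane arm. It had 161.5, 197 and 179 CPM at 1.5 μM and 249, 230.1 and 235 with vehicle, a log2 fold change of -0.41 ± 0.12 with an adjusted p of 1 by edgeR. No treated library reached the lowest vehicle library, and groups that do not overlap were found in 5 of 43 members and 6.62% of all transcripts. At 10 min its values were 193.5, 209.7 and 204 CPM against 218, 194 and 232 with vehicle, which overlap (-0.08 ± 0.1, adjusted p = 0.697 by edgeR). The overlap rests on vehicle replicate 2 (194), without which the log2 fold change was -0.16 ± 0.1 (adjusted p = 0.615 by edgeR). At 60 min the replicate numbers paired the libraries, and with the replicate number as a block NDUFB8 was lower, by a log2 of 0.41 ± 0.091 with an adjusted p of 0.077 by edgeR, as 1 of 43 members (0.345% of all transcripts were lower in that fit, and 0.118% higher). The members at an unadjusted p under 0.05 numbered 5 with the block (840 of all), 4 without 1.5 μM replicate 1 (691) and 2 without vehicle replicate 1 (207).

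In the second study NDUFB8 had 164 and 161 CPM in footprints at 1.5 μM and 189 and 209.6 with vehicle (log2 fold change -0.30 ± 0.072, adjusted p = 0.682 by edgeR). The treated libraries lie below both of vehicle, in a comparison where 12 of 43 members and 30.1% of all transcripts do not overlap between groups. Its mRNA had 183 and 200.5 CPM at 1.5 μM and 190 and 186 with vehicle, groups that overlap, with a log2 fold change of 0.03 ± 0.088. Its TE change was -0.33 ± 0.11 (log2), with an adjusted p of 0.9999 by edgeR and an unadjusted p of 0.0139 by edgeR. In the footprints of the second study 0 of 43 members were called by edgeR (0.115% of 11263 tested), 1 of them at p under 0.05 before adjustment (4 without 1.5 μM replicate 5, with 875 of all, and 2 without any other library), and DESeq2 called 0 (0.125%).

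At 60 min the next outermost members, among those with at least 50 reads per library on average, lay at log2 fold changes between -0.27 and 0.35. In the first study at 1.5 μM, NDUFB3, of the distal membrane arm, had 59.5, 38.4 and 38.6 CPM against 65.5, 41.6 and 51.3 with vehicle, and NDUFA8, of the proximal arm, had 54.6, 46.9 and 47.5 against 46.2, 40 and 44.4. NDUFA9, higher at 10 min, had 64.2, 93.1 and 82.8 against 56.5, 79.1 and 72.5, a log2 fold change of 0.20 ± 0.17. Of these 3, NDUFA8 alone has groups that do not overlap. Within pairs NDUFB3 was lower and NDUFA9 higher in 3 of 3, and with the block their log2 fold changes were -0.22 ± 0.1 and 0.20 ± 0.092 (adjusted p = 0.645 and 0.631 by edgeR). Both are outermost members by choice, and the share of all transcripts with 3 of 3 pairs in 1 direction is not given here. In the second study NDUFAF2 had 5.96 and 7.7 CPM against 7.84 and 8.72 with vehicle, NDUFAF8, an assembly factor that works with NDUFAF5, had 5.63 and 7.1 against 4.94 and 5.1, and NDUFAF7, a methyltransferase, had 15.4 and 16.8 against 13.9 and 13.7. These 3 are outermost members by choice, their groups do not overlap, and none passed the test (adjusted p = 0.9995 by edgeR in each).

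The lower dose, 0.3 μM, gave 0 calls in 43 members at either time, and 0 in all 11131 (0% at 10 min) and 11141 (0% at 60 min) transcripts tested with edgeR. DESeq2 also called 0 (0% at both times), and 0 members had an unadjusted p under 0.05 in edgeR. The 2 doses at each time share the vehicle libraries. After 10 min at 0.3 μM, NDUFC2, of the proximal arm, had 85.1, 38 and 59 CPM against 63.5, 92.1 and 63.4, and NDUFA5 had 40.8, 40 and 34.6 against 37.7, 67.3 and 29.5. At the other end NDUFA9 had 43, 63.2 and 65.7 against 55.9, 38.2 and 57.1, and NDUFAF2 had 8.32, 13.2 and 8.84 against 10.4, 8.45 and 9.28. All 4 overlap between groups, as do all but 1 of 43 members (4.58% of all transcripts do not), and vehicle replicate 2 is the highest vehicle library in NDUFC2 and NDUFA5 and the lowest in NDUFA9 and NDUFAF2. In that order of the 4 genes, the log2 fold changes were -0.27 ± 0.25, -0.22 ± 0.24, 0.19 ± 0.19 and 0.13 ± 0.21, and without that library -0.08 ± 0.27, 0.18 ± 0.15, 0.01 ± 0.18 and 0.05 ± 0.23. After 60 min at 0.3 μM, NDUFAF2 had 9.36, 10.2 and 12.6 CPM against 16.6, 8.87 and 12.4, NDUFB7, of the distal arm, 58.1, 59.5 and 52.7 against 68.8, 61.6 and 64.9, NDUFA5 39.9, 34.4 and 30.3 against 34.2, 29.6 and 25.2, and NDUFB6, also of the distal arm, 105, 68.5 and 66.4 against 81.8, 65.5 and 56.9. Of these 4, NDUFB7 alone has groups that do not overlap (4 of 43 members and 4.97% of all transcripts do not), with a log2 fold change of -0.19 ± 0.12. The replicate numbers paired the libraries at 0.3 μM, and within pairs NDUFA5 and NDUFB6 were higher, and NDUFB7 lower, in 3 of 3. These 3 were chosen as outermost members, and how many of all transcripts do the same is not given here. With the replicate block 0 members were called at either time, 0 at 10 min and these 3 at 60 min had an unadjusted p under 0.05, and their log2 fold changes were 0.23 ± 0.095, 0.21 ± 0.09 and -0.19 ± 0.089 (adjusted p = 0.9996 by edgeR in each).

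In mRNA, 0 of 44 members were called by edgeR (0% of 11812 tested) and 0 by DESeq2 (0.00827% of its transcripts), with 0 members at an unadjusted p under 0.05. Without vehicle replicate 4, 8 members had such a p (1772 of all 11895 transcripts). 9 of 44 members had a log2 fold change above 0, with a median of -0.08, and 49.8% of all transcripts were above 0, with a median of 0. Without 1.5 μM replicate 4 or vehicle replicate 4, 15 of 45 members were above 0 (medians -0.07 in both, with 50.1% and 50.6% of all transcripts above 0). Genes of the other complexes gave 0 of 8 above 0 in complex IV (median -0.08), 1 of 9 in complex III (-0.11), 2 of 17 in complex V (-0.08), 3 of 8 in complex II (-0.06) and 0 of 11 in the other assembly factors of complex I (-0.09). Among members with at least 50 reads per library on average, the outermost were NDUFAF2, at 6.78 and 6.67 CPM with 1.5 μM and 10.5 and 7.51 with vehicle, and NDUFC2, at 56.4 and 68.5 against 59.4 and 92.8. Upward, NDUFS6, a zinc-binding accessory subunit, had 86.3 and 76.4 against 78.8 and 63.2, and NDUFAF1 had 15.5 and 15.9 against 13.1 and 14.5. NDUFAF2 and NDUFAF1 do not overlap between groups and the other 2 do (16 of 44 members and 29.7% of all transcripts do not). The thinly read NDUFA3 had a log2 fold change of 0.55 ± 0.48.

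The change in TE, tested as the interaction of assay and treatment, gave 0 of 44 members (0.0339% of 11799), with 2 at an unadjusted p under 0.05 (6 without vehicle mRNA replicate 4, with 1570 of all, and 0 or 1 without any other library), and DESeq2 gave 0 (0.0909%). Of the members, 31 of 44 had a TE change above 0, with a median log2 of 0.09 against -0.01 in all transcripts. Without the 1.5 μM footprint replicate 5 these were 24 of 44 and 0.02, and the median was 0.05 without the vehicle footprint replicate 4 or the vehicle mRNA replicate 4. Without vehicle mRNA replicate 4, 1 member was called, NDUFC2, in a fit where 0.177% of all transcripts were higher and 0.903% lower. NDUFAF8 had the highest change (0.57 ± 0.32), then NDUFC2 (0.46 ± 0.25), and after NDUFB8 the lowest was NDUFAF1 (-0.20 ± 0.18). The effect of 1.5 μM at 60 min minus that at 10 min gave 0 of 44 (0% of 11167 by edgeR, and 0 members with 0% by DESeq2), with 4 members at an unadjusted p under 0.05 (1 to 6 with 1 library left out, 1 without the 10 min 1.5 μM replicate 2, with 313 of all). Among members with at least 50 reads per library on average, NDUFAF2 (-0.56 ± 0.27) and NDUFA9 (-0.49 ± 0.24) were the lowest in this difference, and NDUFA5 (0.62 ± 0.4) and NDUFB6 (0.46 ± 0.31) the highest. Without the 10-min vehicle replicate 2 these 4 values were -0.49 ± 0.29, -0.32 ± 0.22, 0.21 ± 0.34 and 0.26 ± 0.31. NDUFA3, below that read number, had 2.11 ± 0.8 (adjusted p = 0.856 by edgeR).

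**Figure D2:**
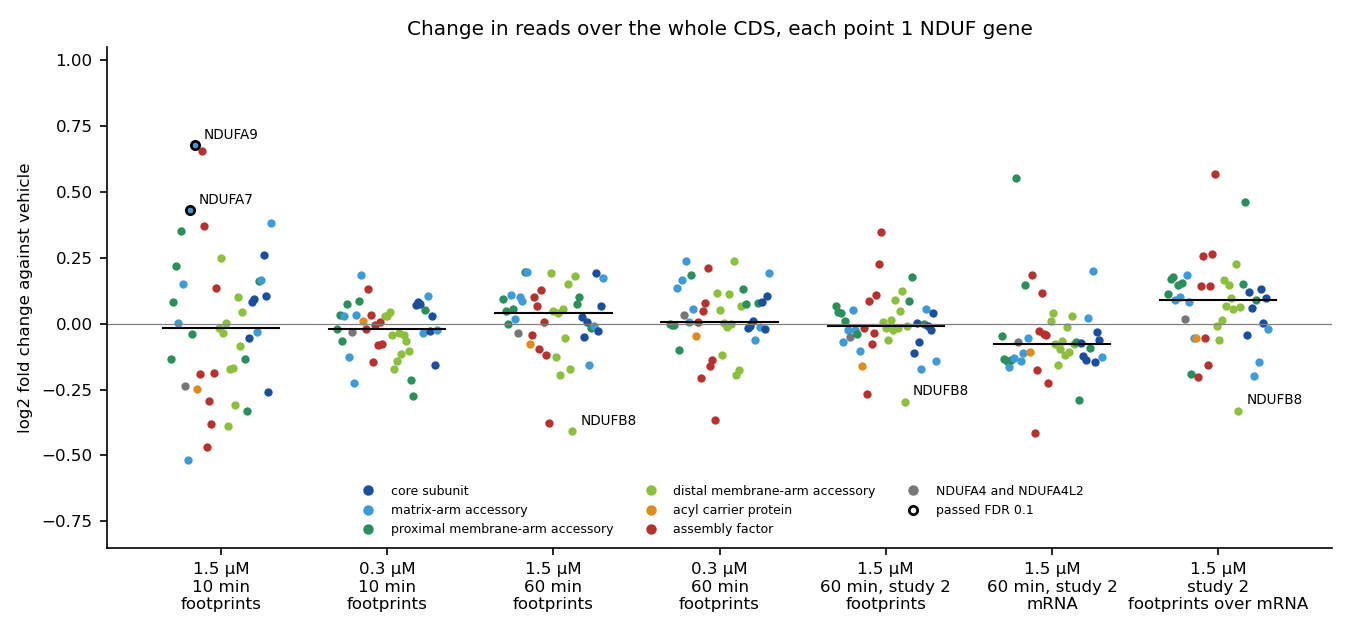
Log2 fold change against vehicle (y axis) of reads over the whole CDS for each NDUF gene, in columns by comparison, with bars at the members' median and colours by role. Black rims mark the 2 genes that passed a false discovery rate of 0.1 in edgeR, NDUFA7 and NDUFA9 after 10 min at 1.5 μM, and NDUFB8 is named at its lowest values, after 60 min.

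The genes of the other respiratory complexes, from lists chosen with earlier results known, were mostly not called over the whole CDS. UQCR10 of complex III was higher (1 of 9) and COX6C of complex IV lower (1 of 8) after 10 min at 1.5 μM, while 0 of 8 in complex II, 0 of 17 in complex V and 0 of 11 other assembly factors of complex I passed. In that fit 51 of all 11045 transcripts were higher and 43 lower. After 60 min in either study, 0 of these genes passed in footprints or in mRNA by edgeR.

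Where footprints fall along a CDS shows more than their sum. Dmax, the measure of the study, compares the cumulative share of reads along the CDS, replicates pooled. It is the largest gap by which that share is ahead with 1.5 μM of that with vehicle. Its Z-score here is the gap divided by the root mean square of the gaps among transcripts of like read number. This is not a distance from their mean in SDs. A Z-score of at least 2 was reached after 10 min by 7 of 43 members (3.48% of 11422 transcripts): NDUFA1, NDUFAB1, NDUFAF8, NDUFB1, NDUFB4, NDUFB7 and NDUFC1. All of them have at most 200 codons, a class in which 11.4% of 2331 transcripts and 7 of 31 members passed, while 0 of the 12 longer members did. The split by length was chosen after the data were seen. With the groups exchanged, so that the gap is ahead with vehicle, 0 of 43 members and 4.48% of all transcripts passed. After 60 min, NDUFA1 and NDUFAB1 passed in the first study (2 of 44, 2.67% of 11442), and NDUFA1, NDUFAB1 and NDUFB8 in the second (3 of 43, 2.38% of 11405). The count of the first study fell to 0 without 1.5 μM replicate 2, without 1.5 μM replicate 3 or without vehicle replicate 1, and to 1 without vehicle replicate 3 (2.58% to 2.91% of all transcripts in these 4). With the last 5 codons left out, NDUFA1 passed in neither study. NDUFAB1 then remained in the first (296 of 11425 transcripts passed), and NDUFAB1 and NDUFB8 in the second (287 of 11388). With the groups exchanged, 4 of 44 (3.85% of all transcripts) and 0 of 43 members (2.67%) passed.

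NDUFAB1 had the largest Z-score of the members in each comparison except that of 60 min in the first study. Its gap after 10 min was 0.316 at codon 87 of 157 (Z = 4.16). By that codon the 3 treated libraries had passed 72.2%, 67.6% and 69.9% of their NDUFAB1 reads, and the 3 vehicle libraries 42.5%, 30.4% and 42.4%. The groups are far apart, with vehicle replicate 2 the lowest. After 60 min the gap was 0.087 at codon 100 (Z = 2.07), with 68.4%, 78.5% and 79% against 55.4%, 69% and 63.9%, and in the second study 0.116 at codon 95 (Z = 3.45), with 70% and 71.1% against 57.6% and 61.3%. At 60 min in the first study the lowest treated library lies below the highest of vehicle, and within pairs the treated library is ahead in 3 of 3.

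The reads after the Dmax codon were compared for transcripts past a Z-score of 2, and those after codon 50 for the rest. After 10 min at 1.5 μM, 7 of 42 members were lower (2.77% of 10762) and 3 higher (1.41%) by edgeR. The Dmax codon was set on the same libraries, which favours a lower count beyond it. NDUFAB1 had 44.2, 50.9 and 54.9 CPM beyond codon 87 with 1.5 μM and 106, 148 and 105 with vehicle (log2 fold change -1.25 ± 0.15, adjusted p = 0.00114 by edgeR). All treated libraries lie below the lowest of vehicle, and without vehicle replicate 2 the fold change was -1.07 ± 0.12. The other lower members were NDUFA4 (after codon 50) and NDUFA1, NDUFB1, NDUFB4, NDUFB7 and NDUFC1 (after their Dmax codons 31, 41, 74, 96 and 61), from a log2 of -0.51 to -1.58. The higher ones were NDUFA7, NDUFA9 and NDUFV3, which have a Z-score under 2. DESeq2 called 7 lower (3.59% of its transcripts) and 3 higher (2.68%) too, but with NDUFA5 and NDUFB3 in place of NDUFB4 and NDUFC1.

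NDUFA4 had 242, 227 and 260.5 CPM against 311, 425 and 304 with vehicle, and NDUFA1, a small subunit of the proximal membrane arm, had 74.5, 89.5 and 99.8 against 115, 149 and 119. In the distal membrane arm, NDUFB1 had 14.5, 15.7 and 19.9 against 29.7, 53.6 and 27.4, NDUFB4 had 51.8, 52.8 and 56.7 against 83.7, 159.5 and 71.8, and NDUFB7 had 13.4, 11.1 and 9.47 against 19.4, 33.3 and 17. In NDUFC1, of the proximal arm, the values were 4.02, 4.08 and 5.23 against 7.67, 25.4 and 6.93. Vehicle replicate 2 is the highest library in all 6 genes, by the most in NDUFC1. Their groups do not overlap, as in 17 of 42 members and 23.6% of all transcripts, and they were chosen as called. The log2 fold change was -0.51 ± 0.13 in NDUFA4, -0.53 ± 0.14 in NDUFA1, -1.14 ± 0.23 in NDUFB1, -0.97 ± 0.23 in NDUFB4 and -1.05 ± 0.24 in NDUFB7. Without vehicle replicate 2, with Dmax computed again, these were -0.34 ± 0.1, -0.40 ± 0.13, -0.72 ± 0.16, -0.53 ± 0.12 and -0.35 ± 0.14. The Z-score of NDUFC1 was then under 2, and its log2 fold change, taken after codon 50, was 0.0049. NDUFV3, a matrix-arm subunit, had 68.8, 74.4 and 73.2 against 48, 52.5 and 59.6 (log2 fold change 0.44 ± 0.12, adjusted p = 0.0863 by edgeR), with no overlap. Without vehicle replicate 2 its log2 fold change was 0.44 ± 0.13, with an adjusted p of 0.178 by edgeR. Without vehicle replicate 2, 4 members were called (NDUFA9, NDUFAB1, NDUFB1 and NDUFB4; 0.315% of all transcripts higher and 0.981% lower), and the count ranged from 1 (without 1.5 μM replicate 1 or 2, with 0.369% and 0.323% of all called) over 5 (without 1.5 μM replicate 3, with 1.41% higher and 1.98% lower) to 17 (without vehicle replicate 3, where 8.36% of all transcripts were higher and 8.71% lower).

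After 60 min NDUFAB1 and NDUFB8 were lower beyond these codons in the second study by edgeR, as 2 of 42 members (0.336% of 11001), and 0 were higher (0.00909%). NDUFAB1 had 39 and 43 CPM beyond codon 95 against 64.3 and 61.4 with vehicle (log2 fold change -0.62 ± 0.097, adjusted p = 0.0188 by edgeR), and NDUFB8 had 153 and 147 beyond codon 50 against 189 and 215 (-0.43 ± 0.078, adjusted p = 0.0581 by edgeR). In both genes each treated library lies below each vehicle library (15 of 42 members and 31.7% of all transcripts do not overlap). Without vehicle replicate 5, 1 member was called, NDUFAB1 (0.272% of all). After 10 min NDUFB8 had 167, 195 and 202 CPM beyond codon 50 against 230.5, 195 and 235, which overlap through vehicle replicate 2 alone (-0.23 ± 0.11, adjusted p = 0.301 by edgeR). Without that library the Z-score of NDUFB8 passed 2. Its log2 fold change beyond the Dmax codon was then -0.33 ± 0.11 (adjusted p = 0.226 by edgeR). In the first study NDUFAB1 had 53.3, 39.1 and 40.7 CPM beyond codon 100 against 87.8, 59.6 and 65.2 (-0.66 ± 0.18), and NDUFB8 had 176, 191 and 180.5 beyond codon 50 against 273, 242 and 245 (-0.47 ± 0.12). Again the groups do not overlap (4 of 42 members and 7.61% of all transcripts). There 0 of 42 members passed (0.224% of 10710), where 2 had p under 0.05 before adjustment and DESeq2 called 0 (0.299% of its transcripts), and with the block both did, with adjusted p of 0.00352 and 0.0235 by edgeR (2 of 42, with 0.635% of all lower and 0.233% higher). NDUFA1, called in neither study, had 83.6, 68.9 and 62.1 CPM beyond its Dmax codon against 120.1, 61.6 and 71.9 in the first, which overlap. In the second it had 76.8 and 79.65 against 81.7 and 90.35, which do not.

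**Figure D3:**
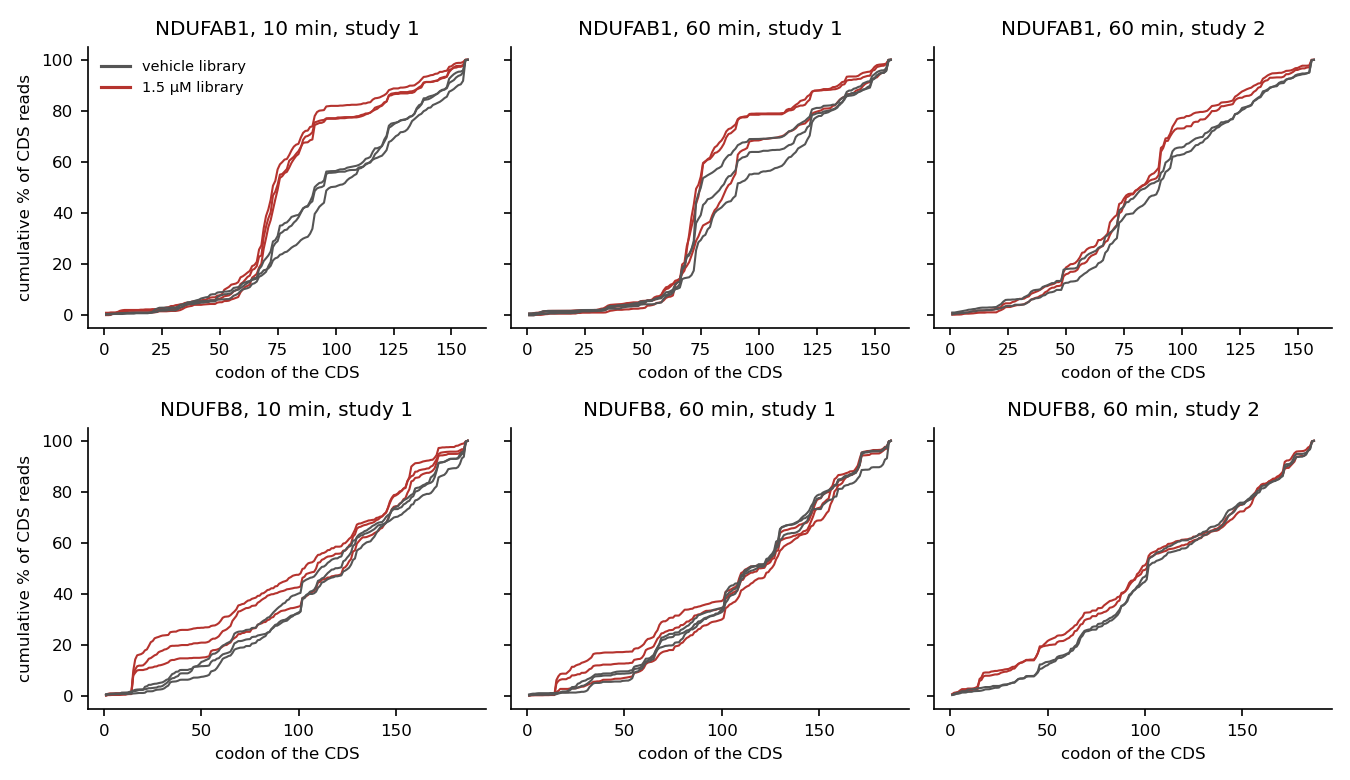
Cumulative share of CDS reads (y axis, %) along the codons (x axis) of NDUFAB1 and NDUFB8, 1 line per library, with 1.5 μM in red and vehicle in grey. In NDUFAB1 the treated lines rise steeply from about codon 69 and are ahead at codon 87 after 10 min, and in NDUFB8 they step up at codon 15.

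The codon at which NDUFB8 steps up was looked for with a test per codon, which was added after the data were seen. A codon could enter this test through 1 group alone, with at least 10 reads in as many libraries as a group holds, which favours a large change where that group is the high one. The treated libraries alone met that minimum at NDUFB8 codons 15, 16, 17 and 156 after 10 min, at codons 15, 16 and 156 after 60 min and at codons 15 and 17 in the second study. The p values of these codons are therefore given as a description. The step is at codon 15 of 187, in exon 1 of the transcript. The sequence of codons 1 to 30 is printed with codons 15 to 17 in capitals, because these 3 codons were called higher. They lie at chr10:100529801-100529809 of GRCh38 on the minus strand, in a transcript that spans chr10:100523740-100529871. Codon 156, another called codon of the same gene, is at chr10:100526399-100526401 in exon 4 and in capitals in the line after it.
NDUFB8 codons 1 to 30: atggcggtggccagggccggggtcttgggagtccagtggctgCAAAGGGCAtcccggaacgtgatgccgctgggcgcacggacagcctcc
NDUFB8 codons 144 to 168: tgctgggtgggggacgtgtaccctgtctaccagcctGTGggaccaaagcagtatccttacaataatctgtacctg

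NDUFB8 codon 15 held 8.72%, 7.75% and 7.24% of the gene's footprints at 1.5 μM after 10 min, and 0.0522%, 0.396% and 0.562% with vehicle. Every treated library is far above every vehicle library, with 407 pooled reads against 23. The log2 fold change was 4.61 ± 0.53, with an adjusted p of 0.000807 by edgeR over 169212 codons. After 60 min the shares were 0.938%, 5.66% and 4.42% against 0.122%, 0.0861% and 0.127% (4.66 ± 0.77, adjusted p = 0.218 by edgeR, and 2.92e-05 with the replicate block). In the second study they were 4.04% and 2.16% against 0.0768% and 0.0541% (5.13 ± 0.66, adjusted p = 2.14e-08 by edgeR). The groups do not overlap in any of these comparisons, and by CPM per codon neither do those of 445 of the 1649 member codons tested after 10 min (24.3% of all codons), 155 of 1639 after 60 min (8.32%) and 732 of 2077 in the second study (31.9%). For NDUFB8 codon 15, 1.5 μM replicate 1 is the lowest of the treated libraries after 60 min. With 0.3 μM the share was 0.987%, 0.434% and 2.1% after 10 min and 0.483%, 0.847% and 1.46% after 60 min, between vehicle and 1.5 μM on average, with adjusted p of 1 by edgeR at both times. In mRNA the codon held 0.0876% and 0.494% at 1.5 μM and 0.0894% and 0.17% with vehicle, which overlap.

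The next codons carried smaller shares. Codon 16 held 2.45% ± 1.7 after 10 min at 1.5 μM against 0.136% ± 0.12 with vehicle (SD, n = 3; log2 fold change 4.03 ± 0.61, adjusted p = 0.00503 by edgeR), and codon 17 held 1.23% ± 0.36 against 0.134% ± 0.064 (3.17 ± 0.56, adjusted p = 0.0099 by edgeR). Codon 17 was also higher in the second study (1.56% ± 0.26 against 0.177% ± 0.021, SD, n = 2, adjusted p = 0.00883 by edgeR). Codon 156 held 2.32% ± 0.29 against 0.609% ± 0.17 after 10 min (1.82 ± 0.4, adjusted p = 0.0229 by edgeR), and 2.34% ± 0.83 against 0.451% ± 0.18 after 60 min, called with the block (adjusted p = 0.0848 by edgeR). It held 1.78% ± 0.54 against 0.777% ± 0.26 in the second study, which did not pass. Codons 69 and 157 of NDUFB8 were called higher after 10 min as well, and codons 39, 46, 87, 111, 183 and 184 lower. Codon 69 held 1.43% ± 0.34 against 0.341% ± 0.15 (2.035 ± 0.48, adjusted p = 0.0294 by edgeR). After 60 min it held 0.98% ± 0.36 against 1.34% ± 1.09 in the first study and 1.48% ± 0.12 against 1.2% ± 0.32 in the second, both with overlap.

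In NDUFAB1 codons 69, 70 and 75 were called higher after 10 min and 6 codons lower. Codons 69 and 70 lie in exon 2, at chr16:23587278-23587283 of GRCh38 on the minus strand, in a transcript that spans chr16:23581014-23596316. They are in capitals here, and codon 70 lies 3 codons before codon 73, the most read codon of NDUFAB1 in vehicle.
NDUFAB1 codons 55 to 84: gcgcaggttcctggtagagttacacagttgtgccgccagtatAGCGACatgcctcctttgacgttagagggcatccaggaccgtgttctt

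Codon 69 held 6.71%, 7.15% and 5.87% of the gene's footprints after 10 min at 1.5 μM and 0.708%, 1.08% and 2.08% with vehicle (log2 fold change 2.16 ± 0.41, adjusted p = 0.0137 by edgeR). Codon 70 held 4.73%, 4.08% and 4.09% against 0.814%, 0.25% and 1.04% (2.43 ± 0.44, adjusted p = 0.0117 by edgeR). At both codons the treated libraries are well above those of vehicle. Codon 70 entered the test through the treated libraries alone at both times of the first study and in the second, and codon 69 through both groups after 10 min. Codon 75 had a log2 fold change of 1.88 ± 0.46 (adjusted p = 0.0356 by edgeR). Without vehicle replicate 2 the adjusted p at 10 min was 0.0661, 0.0518 and 0.162 by edgeR at codons 69, 70 and 75. The shares added at codons 69 and 70 are smaller than the gap at codon 87, so further codons hold part of it. After 60 min codon 70 held 1.47%, 3.32% and 5.92% against 0.179%, 0.753% and 0.636% (2.63 ± 0.64, adjusted p = 0.902 by edgeR, and 0.00442 with the replicate block), without overlap. Codon 69 held 1.29%, 6.45% and 8.18% against 0.179%, 4.32% and 3.24%, which overlap, with the treated library higher in 3 of 3 pairs. In the second study codon 70 held 1.17% and 1.62% against 0.497% and 0.584%, and codon 69 4.32% and 2.2% against 2.26% and 1.08%, neither of them called.

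**Figure D4:**
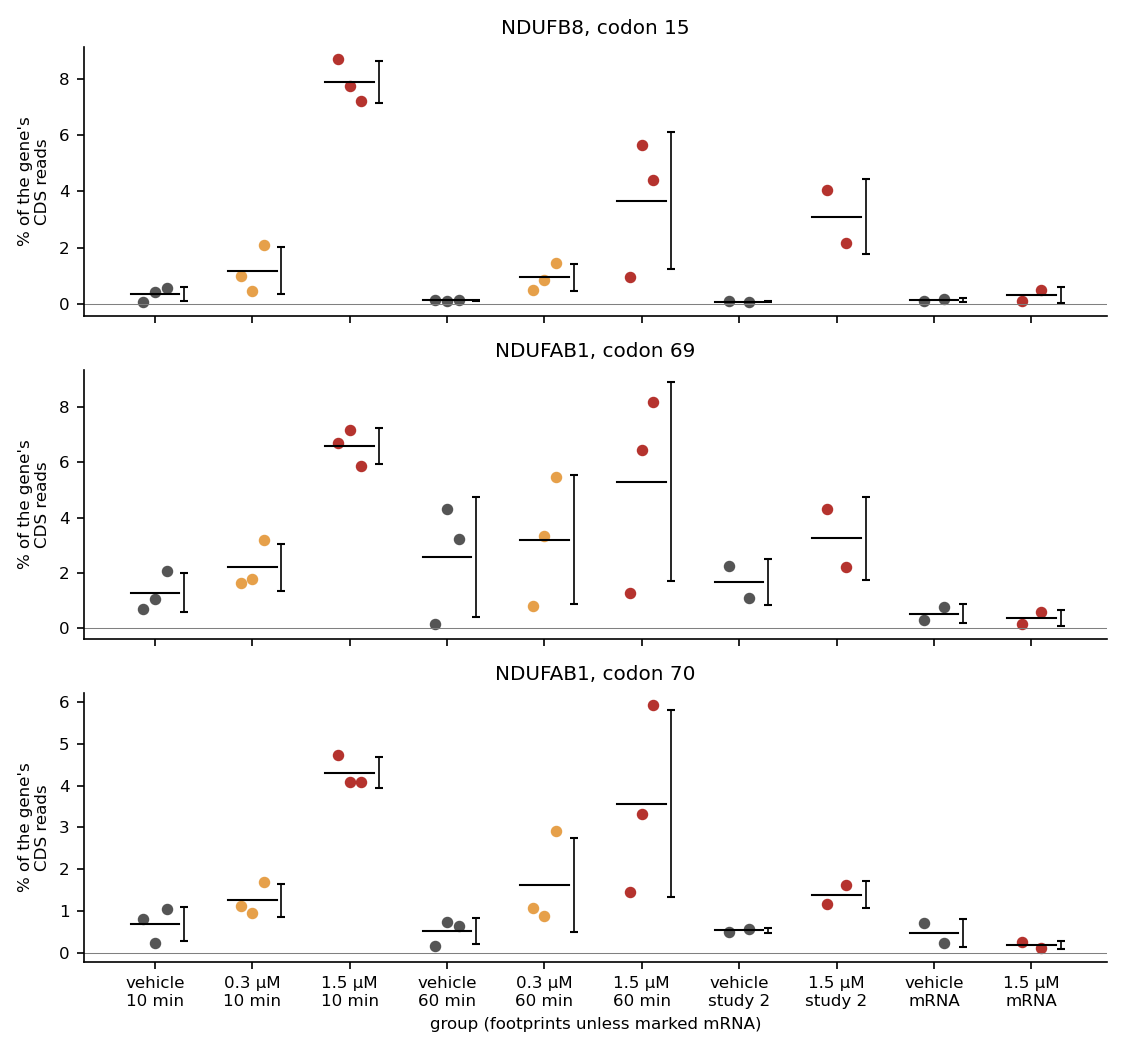
Share of the gene's CDS reads (y axis, %) at NDUFB8 codon 15 and NDUFAB1 codons 69 and 70, 1 point per library, with the mean as a bar and ± SD beside it (n = 3, or 2 in the second study). NDUFB8 codon 15 held 7.24% to 8.72% after 10 min at 1.5 μM and at most 0.562% with vehicle.

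Over all members, the test per codon called 63 codons higher (3.39% of 169212 codons) and 63 lower (3.84%) of 1649 tested after 10 min at 1.5 μM. Both shares are close to those of all codons. Without 1.5 μM replicate 1 the sum of 126 calls was 35 (1.97% of all codons), without 1.5 μM replicate 2 it was 4 (0.178%), without 1.5 μM replicate 3 it was 45 (3.4%), without vehicle replicate 2 it was 16 (0.85%), and without vehicle replicate 3 it was 243, where 9.03% of all codons were higher and 6.11% lower. Apart from NDUFB8, codons 26, 27 and 28 of NDUFB9, an accessory subunit of the distal membrane arm, had the highest fold changes, with few reads in vehicle. Codon 27 had 70, 54 and 52 reads at 1.5 μM and 0, 6 and 15 with vehicle, so that it and its neighbours entered the test through the treated libraries alone, which favours a large change. The log2 fold changes of codons 26, 27 and 28 were 2.87 ± 0.69, 3.51 ± 0.68 and 3.53 ± 0.7, with adjusted p of 0.0315, 0.0146 and 0.0154 by edgeR, and of 0.157, 0.0987 and 0.0827 without vehicle replicate 2. NDUFB9 codon 27 had a log2 fold change of 1.18 ± 0.98 after 60 min (adjusted p = 1 by edgeR), and in the second study it had 8 and 1 reads at 1.5 μM and 2 and 6 with vehicle, while codon 28 had 0 in all 4 libraries. NDUFB11 codon 110 (2.69 ± 0.63) and NDUFV1 codon 388 (2.53 ± 0.58) were also higher after 10 min, entering the test in the same way, but not without vehicle replicate 2 (adjusted p = 0.162 and 0.149 by edgeR), and after 60 min their values were -0.01 ± 0.69 and 0.70 ± 0.92. NDUFV2 codon 94 (2.62 ± 0.79, adjusted p = 0.0749 by edgeR) was higher after 10 min too, with 57 pooled reads against 14, and stayed called without vehicle replicate 2. After 60 min it had 13 pooled reads at 1.5 μM and 17 with vehicle.

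After 10 min calls also fell at the ends of the CDS. At the codon before the stop, 11 of 30 members were lower (14.6% of 3537 transcripts), among them NDUFA4 (log2 fold change -2.62 ± 0.5), NDUFB9 (-2.44 ± 0.56), NDUFB5 (-2.30 ± 0.56) and NDUFAB1 (-1.92 ± 0.44), and NDUFV1 was higher (1.91 ± 0.62). Reads at that codon were also taken over the gene's mean reads per codon, with medians over 39 members of 2.53 to 4.61 at 1.5 μM. Over 6428 transcripts these medians were 3.225 to 6.01. Vehicle replicate 2 had the highest such ratio, a median of 10.6, against 6.88 and 5.35 in the other vehicle libraries. In the same order the medians over the 6428 transcripts were 11.03, 6.34 and 8.05. Without vehicle replicate 2, 1 member was lower, NDUFA4 (1.92% of all transcripts), and without 1.5 μM replicates 1, 2 or 3 there were 2, 0 and 4 (3.85%, 0.311% and 9.73%). At codon 1, 4 of 13 members were higher (18.1% of 634 transcripts), namely NDUFB1, NDUFB4, NDUFC2 and NDUFS5, of which NDUFS5 had a log2 fold change of 2.17 ± 0.41 (adjusted p = 0.0135 by edgeR). Without vehicle replicate 2 only NDUFS5 was called there (4.89% of all), without 1.5 μM replicates 1, 2 or 3 there were 2, 0 and 2 (5.99%, 0.158% and 13.2%), and without vehicle replicate 3 there were 6 (33.4%). After 60 min 0 member codons were called in the first study (0% of 188663 codons). With the replicate block 3 were higher (0.153% of all), namely NDUFB8 codons 15 and 156 and NDUFAB1 codon 70, and 1 lower (0.131%), NDUFA13 codon 62. In the second study 2 of 2077 were higher (0.1% of 225291), NDUFB8 codons 15 and 17, and 2 lower (0.0542%), NDUFB8 codon 87 and NDUFAB1 codon 110. Without vehicle replicate 5 these 4 became 10 (0.532% of all codons), and without 1.5 μM replicate 5 they became 19 (0.741%). With 0.3 μM 0 codons were called at either time (0% of 205362 and 0% of 213735 codons).

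The mean position of a gene's footprints, in % of CDS length from the start, sums these changes up. It was tested with limma on transcripts that had 20 or more reads in each of the libraries. The variance followed a trend on read number, and the libraries were not weighted by reads. After 10 min at 1.5 μM, 20 of 43 members had moved toward the 5′ end (10.9% of 10036 transcripts) and 0 toward the 3′ end (0.847%). The median change was -3.54% of the CDS in members and -1.21% in all transcripts. Short transcripts were called more often, 33.1% of those with up to 100 codons (7 of 9 members) and 26.4% of those with 100 to 200 (10 of 22 members), against 13.9% of those with 200 to 400 (3 of 7) and 5.31% of longer ones (0 of 5). These length classes were chosen after the data were seen, and the difference between members and all transcripts within them was not tested.

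NDUFAB1 had its mean at 51.6%, 54% and 54.7% with 1.5 μM and at 63.2%, 65.6% and 62.8% with vehicle, a change of -10.4 ± 1.25 (adjusted p = 0.000259 by limma). NDUFB1 had 50.5%, 49.4% and 51.3% against 60.9%, 69.3% and 59.1% (-12.7 ± 2.07, adjusted p = 0.0028 by limma), and NDUFA1 54.3%, 53.3% and 56.8% against 63.8%, 66% and 62.4% (-9.30 ± 1.31, adjusted p = 0.00109 by limma). In all 3 genes the groups do not overlap, as in 25 of 43 members and 27.4% of all transcripts. NDUFB4 had 48.1%, 48.9% and 51.6% against 57.6%, 62.3% and 56.5% (-9.27 ± 1.5, adjusted p = 0.00265 by limma). NDUFAF8 had the largest change, from 83.3%, 80.3% and 59.2% to 37.6%, 50.4% and 58.9% (-25.3 ± 6.18, adjusted p = 0.0251 by limma), on 121 pooled reads in its smaller group, and its replicates 3 nearly meet. Without vehicle replicate 2 it did not pass (-22.3 ± 7.17, adjusted p = 0.119 by limma), while NDUFAB1, NDUFB1, NDUFA1 and NDUFB4 passed with -9.54, -9.59, -8.32 and -7.50. NDUFB8 had 51%, 54% and 59% against 62.2%, 60.3% and 61.8% (-6.74 ± 1.61, adjusted p = 0.0229 by limma). At 0.3 μM, where position was not tested, the NDUFAB1 values were 58.2%, 62.6% and 59.1%, against 62.8% in the lowest vehicle library. How many of all transcripts are separated like this at 0.3 μM is not given here, so nothing is read from it.

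With the first 15 and last 5 codons left out, 9 of 42 members moved toward the 5′ end (6.59% of all transcripts) and the members' median was -1.68% (-0.57% in all). With all codons kept, the 20 calls became 8 without 1.5 μM replicate 1 or 2 (5.02% and 3.22% of all). They became 13 without vehicle replicate 1 (5.98%) and 12 without vehicle replicate 2 (5.93%). After 60 min 0 of 42 members moved in the first study (0.153% of 9792 toward the 5′ end and 0% toward the 3′ end by limma), and 0 of 43 in the second (0.432% and 0.048% of 10421). Before adjustment 3 members had p under 0.05 in the first study (515 of all) and 4 in the second (588 of all). Of the 3, NDUFAF6 had a change toward the 3′ end (7.77 ± 3.6). Without vehicle replicate 5, 1 member was called in the second study, NDUFAB1 (0.837% of all). Groups that do not overlap were found in 2 of 42 members (10.7% of all) and 16 of 43 (33.4%). With the replicate block 1 of 42 moved toward the 5′ end in the first (0.337% of all, and 0.0408% toward the 3′ end), NDUFA1, from 62.9%, 60.2% and 61.8% with vehicle to 58.5%, 53.4% and 55.7% without overlap (-5.74 ± 1.15, adjusted p = 0.0985 by limma). NDUFAB1 had changes of -4.48 ± 1.84 and -3.64 ± 1.14 in these studies, with adjusted p of 0.871 and 0.307 by limma.

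**Figure D5:**
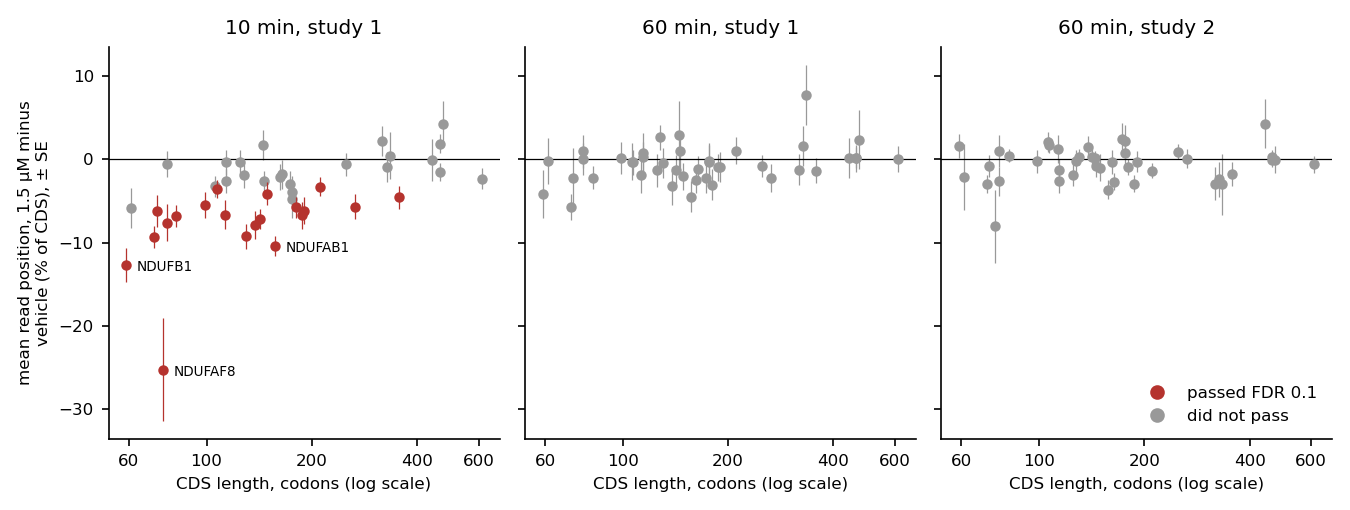
Change in the mean read position of each NDUF gene (y axis, 1.5 μM minus vehicle in % of CDS length, ± SE) against CDS length (x axis, codons, log scale), with genes that passed a false discovery rate of 0.1 in limma in red. After 10 min 20 of 43 genes passed, all toward the 5′ end, and after 60 min 0 passed in either study.

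In vehicle, single codons already held large shares of the footprints of some members. The windows of the NDUFS5 and NDUFA4 peaks are printed with the most read codon in capitals, since these are the most read complex I subunit and the most read gene of the list. NDUFS5 codon 84 lies at chr1:39034425-39034427 (plus strand, exon 3 of the transcript) and NDUFA4 codon 31 at chr7:10938846-10938848 (minus strand, exon 2) of GRCh38.
NDUFS5 codons 70 to 89: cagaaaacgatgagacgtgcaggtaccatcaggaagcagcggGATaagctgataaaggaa
NDUFA4 codons 17 to 36: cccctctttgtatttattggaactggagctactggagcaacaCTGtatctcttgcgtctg

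NDUFS5 codon 84 held 7.05% of 29732 pooled vehicle footprints, between 3.46% and 13.6% in single libraries, and was the most read codon in 6 of the 8, against 0.26% of its mRNA reads. NDUFA4 codon 31 held 4.93% (2.15% to 8.78%), as the top codon in 4 of 8, against 1.97% of its mRNA reads. NDUFAB1 codon 73 held 7.11% (2.12% to 15.3%) and NDUFB8 codon 102 held 4.73% (2.88% to 6.11%), each as the top codon in 6 of 8. The codon before the stop, codon 1 and the stop codon were left out of this count. In members with over 1000 pooled reads the share of the top codon went down to 1.1% in NDUFS1, the longest CDS. A share depends on CDS length. Taken over the mean reads per codon of the CDS, the top codon stood at 7.55 in NDUFS5, 4.04 in NDUFA4, 11.2 in NDUFAB1, 8.85 in NDUFB8 and 6.71 in NDUFS1.

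NDUFV3 is read unevenly along its CDS. The counted isoform has a long coding exon 3 (codons 58 to 422, chr21:42903182-42904276 of GRCh38, plus strand), which makes up 77% of its CDS and is absent from the other coding isoform of the gene. Exon 3 held 18.7% ± 5.07 of the vehicle footprints (SD, n = 8, from 13.4% to 27.4%) and 17.9% and 20% of the mRNA reads. The last coding exon (codons 423 to 474) held 59.3% ± 11.1 of the footprints and 44.2% and 50.5% of the mRNA reads. In the 8 libraries the share of the last exon, at least 45.4%, stayed above that of the long one. The density of NDUFV3, 40.4 ± 2.15, is taken over all 474 codons. This split by exon was chosen after the data were seen.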

How the data were processed

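Per the labels, ribo-seq and mRNA-seq libraries of Huh7 cells were deposited as raw read counts per codon. The authors removed rRNA reads and aligned the rest with Bowtie 1.1.2 to the most abundant isoform of each gene (kallisto 0.42.5, Ensembl 78, GRCh38), keeping up to 5 best sites per read, so that paralogs can share reads, and placed footprints at the P site.

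Transcripts were named by GENCODE 44 (11270 of 12325 in all). The NDUF members, gene lists and tests were chosen with earlier results of these data known. Counts were summed per CDS and tested with edgeR 4.0.16 (TMM, quasi-likelihood, Benjamini-Hochberg, false discovery rate 0.1) on the libraries of each comparison, with DESeq2 1.42.0 as an alternative. Dmax was computed with Python 3.11.15, with Z-scores among 300 transcripts of like read number and at least 10 reads. Mean positions were tested with limma 3.58.1, and codons with at least 10 reads in as many libraries as a group holds with edgeR. The genes given with each library's value were those called, the 2 highest and 2 lowest log2 fold changes, members with a Dmax Z-score of at least 2, and the ends of the order by density and TE. The edgeR fits per CDS and per codon, the limma fit and Dmax were tested on simulated data, without the replicate block. The DESeq2 fits, the fits with the block and those beyond the Dmax codon were not. The values of 1 core subunit are not reported here.

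Replicate numbers were taken as pairs where deviations from the group means of same-numbered libraries correlated above 0.1 in every one of 3 pairs over 8181 transcripts, a pairing that comes from the data. This held at 60 min for 1.5 μM (0.418 to 0.603) and 0.3 μM (0.45 to 0.618), and at 10 min for 0.3 μM (0.158 to 0.599). A direction shared by 3 of 3 pairs is given as a description of single genes or codons, without the share over all of them.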

Additional observations from a re-analysis of the deposited data

How the results depend on the processing

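The cause of the changes given here was not tested. After 10 min at 1.5 μM the 2 members called over the whole CDS became 0 at a false discovery rate of 0.05 (0.263% of all transcripts called) or in a fit of all 18 libraries (0.266%), 1 with the DESeq2 size factors (0.824%) or without the first 15 and last 5 codons (1.41%), 4 with DESeq2 (4.31%), 5 after codon 50 (1.81%), 9 with the replicate block (10.8%), and 0 to 12 with 1 library left out (0.081% to 14.9%), against 0.851% of all with all 6 libraries. Beyond the Dmax codon the 10 calls became 3 at a false discovery rate of 0.05 (1.35% of all), 5 at a Z-score minimum of 3 (2.16%), and 1 to 17 with 1 library left out (0.323% to 17.1%). The 20 calls by position became 9 without the first 15 and last 5 codons (7.99%) and 8 to 23 with 1 library left out (3.33% to 14.7%), and the 126 codons 4 to 243 (0.178% to 15.1%). After 60 min in the first study, the replicate block gave 1 member over the whole CDS, 2 beyond the Dmax codon, 1 by position and 4 codons (0.463%, 0.868%, 0.378% and 0.285% of all), against 0 in each without it. There the members past the Dmax Z-score were 1 without the last 5 codons and 0 to 2 with 1 library left out, and the codons 0 to 1. In the second study 1 member was called over the whole CDS after codon 50 (0.264% of all) and 1 with the replicate block (1.15%), NDUFB8 both times (with the block -0.29 ± 0.052, adjusted p = 6.35e-06 by edgeR). Beyond the Dmax codon the 2 calls became 1 at a false discovery rate of 0.05 (0.282%) and 1 to 2 with 1 library left out (0.272% to 0.729%). By position the range was 0 to 1 (0.278% to 0.837%), in TE 0 to 1 (0.00841% to 1.08%), and the 4 codons became 11 with the replicate block (0.4%) and 3 to 19 with 1 library left out (0.144% to 0.741%).

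For the named genes, a value changed sign under an alternative in 8 instances, with NDUFC2 mRNA counted more than once. With 1 library left out the log2 fold change at 0.3 μM ranged from -0.44 to 0.18 in NDUFA5 and from -0.13 to 0.26 in NDUFAF2 after 10 min, and from -0.42 to 0.023 in NDUFAF2 and from -0.0077 to 0.38 in NDUFB6 after 60 min. That of NDUFC2 mRNA was 0.0502 after codon 50 and ranged from -0.57 to 0.0767, and that of NDUFC1 beyond its Dmax codon at 10 min ranged from -1.88 to 0.0049. The position change of NDUFC2 at 10 min was 0.86 without the first 15 and last 5 codons. The ratio of assembly factors to subunits was 0.165 with geometric means in place of medians.

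The replicate numbers did not meet the rule for pairs at 10 min and 1.5 μM (correlations 0.0616 to 0.256), and the second study has only 2 pairs (0.352 in footprints, 0.118 in mRNA). Low read numbers limit NDUFA3, NDUFA4L2 and NDUFAF8, and single codons rest on few reads.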

Other observations

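NDUFA6 and NDUFS7, an accessory and a core subunit of the matrix arm, were not matched to a GENCODE symbol here and were named from a supplementary table of the study, so they are not among the 45 genes. Their vehicle footprint density was 426 ± 64.2 and 121 ± 15.9 (SD, n = 8), and their TE was 1.44 and 0.697. After 10 min at 1.5 μM the log2 fold change was 0.12 ± 0.14 in NDUFA6 and 0.52 ± 0.15 in NDUFS7 (adjusted p = 0.685 and 0.136 by edgeR), and neither passed over the whole CDS in another comparison. The mean read position of NDUFS7 moved toward the 5′ end after 10 min, by -5.11 ± 1.61% of the CDS (adjusted p = 0.0706 by limma).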
